A study of Homo sapiens with 8 samples.

Results

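The GATA transcription factors described here are GATA2, GATA3, GATA4, GATA5 and GATA6, 5 of 19222 autosomal protein-coding genes in the annotation. They were chosen by name, as the members of the GATA family that lie on autosomes and carry the paired GATA zinc fingers, and GATA1, which lies on the X chromosome, was not included. Each gene was measured as its body plus 2000 bp upstream, and the measure was the length of that interval covered by islands, the stretches of the genome where the peak caller found ChIP-seq tags in excess. The cells were PC9, an established human lung adenocarcinoma line, which were treated for 5 days with the vehicle DMSO or with 1 μM GSK126, an inhibitor of EZH2, the enzyme of Polycomb repressive complex 2 that places H3K27me3. There were 2 libraries for each treatment of each of 2 histone marks, H3K27me3 and H3K4me3. Every reaction, with DMSO as with GSK126, also received Drosophila chromatin and an antibody to the Drosophila histone variant H2Av as a reference. PC9 is a single line, and the labels do not say whether the replicates were separate cultures.

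GATA factors bind DNA through zinc fingers that recognise the letters GATA, and each is known for setting the identity of particular lineages. GATA2 maintains haematopoietic stem and progenitor cells, GATA3 directs T cell and luminal breast epithelial fates, and GATA4, GATA5 and GATA6 act in the heart and in endoderm, where GATA6 is also expressed in the developing lung epithelium. As lineage regulators they are classic Polycomb targets: in cells that do not use them their genes lie under broad domains of H3K27me3, a mark of repressed chromatin, whereas H3K4me3 marks the starts of genes that are active or poised.

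The files held 14 island lists, 8 for H3K27me3 and 6 for H3K4me3. In the spike-in lists human tags had been removed at random in proportion to the Drosophila tags, and in the standard lists the libraries of a replicate had been brought to equal numbers of human tags. A DMSO library of H3K4me3 had 1 list, which served both. The mean tag density recovered from the island scores was 0.382 to 2.33 tags per 200-bp window over the H3K27me3 lists, 1.48 to 1.77 over the H3K4me3 lists of replicate 1 and only 0.263 to 0.302 over those of replicate 2, so that H3K4me3 lengths are compared within a replicate. In the spike-in lists the mean H3K27me3 density with GSK126 was 4.33-fold lower in replicate 1 and 5.11-fold lower in replicate 2. These folds are the scaling set by the Drosophila tags. They match the paper's ratios from tags over the whole Drosophila genome. The paper's ratio from H2Av regions alone called for a smaller reduction in replicate 2. H3K4me3 islands lay in the intervals of 6 of 6 epithelial markers (EPCAM, CDH1, KRT8, KRT18, KRT19 and EGFR) in both DMSO lists, and none lay in PTPRC, the pan-leukocyte marker, in any list.

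The start regions of 3 members are shown because the H3K4me3 results turn on them: those of GATA3 and GATA6 lay under H3K4me3, and GATA2 had an inner start under H3K4me3 and an outer start under neither mark. Each sequence is the 200 bases immediately before a transcript start in GRCh37, 5′ to 3′ on the strand of the gene, with the CG dinucleotides in capitals. The GATA2 outer start region lies at chr3:128212045-128212244 on the minus strand, before the canonical transcript, and the inner one at chr3:128207374-128207573, before 2 shorter transcripts and inside the first intron of the canonical one. The others are chr10:8096451-8096650 on the plus strand for GATA3 and chr18:19749350-19749549 on the plus strand for GATA6, where an exon of the divergent noncoding gene GATA6-AS1 overlaps the stretch.
GATA2 outer start: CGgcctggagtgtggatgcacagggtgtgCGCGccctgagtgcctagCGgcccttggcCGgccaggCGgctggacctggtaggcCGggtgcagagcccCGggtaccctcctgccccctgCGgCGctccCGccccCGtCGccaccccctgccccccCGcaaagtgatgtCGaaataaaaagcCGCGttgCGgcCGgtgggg
GATA2 inner start: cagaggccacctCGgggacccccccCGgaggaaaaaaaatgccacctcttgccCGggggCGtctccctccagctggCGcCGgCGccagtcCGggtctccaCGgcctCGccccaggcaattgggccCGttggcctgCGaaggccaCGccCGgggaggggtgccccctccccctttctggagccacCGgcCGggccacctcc
GATA3 start: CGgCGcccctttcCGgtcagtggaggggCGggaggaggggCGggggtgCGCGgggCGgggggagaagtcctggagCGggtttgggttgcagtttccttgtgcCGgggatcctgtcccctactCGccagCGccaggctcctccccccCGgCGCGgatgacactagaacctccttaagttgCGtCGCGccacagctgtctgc
GATA6 start: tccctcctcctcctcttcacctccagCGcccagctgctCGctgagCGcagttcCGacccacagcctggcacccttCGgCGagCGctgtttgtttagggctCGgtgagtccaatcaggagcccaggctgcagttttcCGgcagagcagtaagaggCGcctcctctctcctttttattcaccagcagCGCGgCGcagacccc
The number of CG dinucleotides was 19 in the outer and 16 in the inner GATA2 stretch, 18 in GATA3 and 13 in GATA6. Over 250 bases before to 50 after the canonical start, GATA2 and GATA3 had 29 CG dinucleotides each and GATA6 had 25, against a median of 23 over the 19222 promoters. Fewer were held by 64.3% of promoters for GATA2 and GATA3 and by 53.6% for GATA6. The ratio of observed to expected CG was 0.744 for GATA2, 0.804 for GATA3 and 0.824 for GATA6, against a median of 0.778. The letters GATAA were searched on both strands of the same 300 bases and were found in none of these 3 promoters, and 17.5% of all promoters held them.

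With DMSO, each member carried 1 of the marks and not the other when H3K27me3 was taken from the spike-in lists. GATA4 and GATA5 had H3K27me3 islands in both DMSO spike-in lists (2 of 5 members, against 28.2% of all genes), and neither had an H3K4me3 island in any of the 6 lists. GATA2, GATA3 and GATA6 had H3K4me3 in both DMSO lists (3 of 5, against 69% of all genes) and no H3K27me3 in the spike-in lists. The state with H3K4me3 and no H3K27me3 in DMSO was held by 52.7% of all genes and the reverse state by 12.7%. None of the 5 intervals held both marks in the spike-in lists. The nearest H3K4me3 island to GATA4 was 8.29 to 9.29 kb past its 3′ end, at NEIL2, a DNA glycosylase gene, and the nearest to GATA5 was 33.4 to 34.8 kb past its 3′ end.

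**Figure D1:**
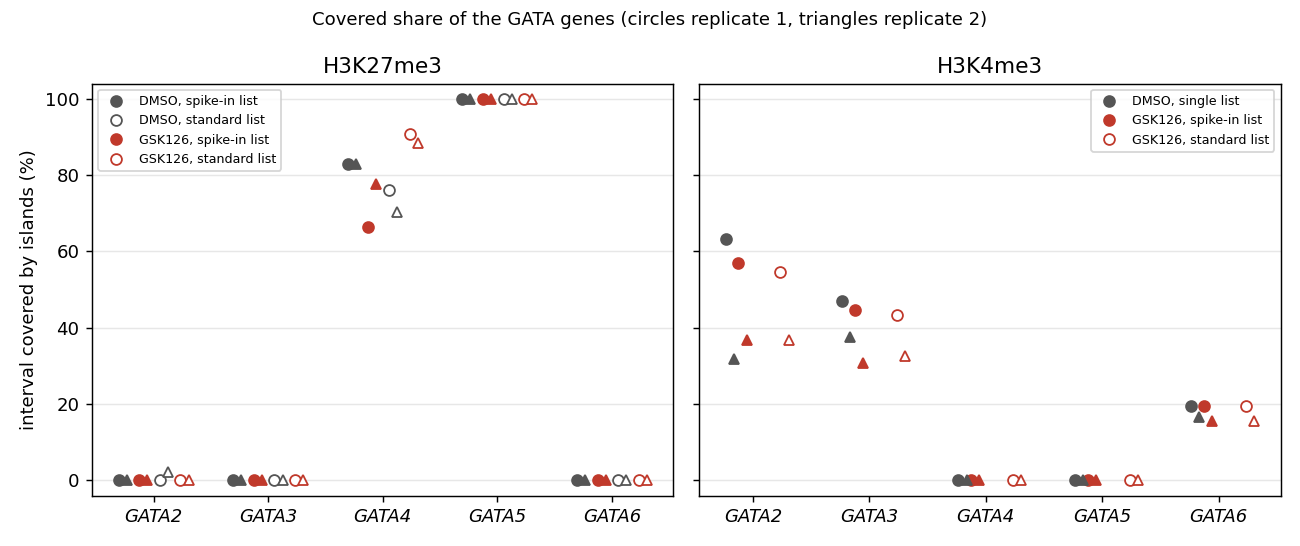
Share of each interval (gene body plus 2000 bp upstream, percent) covered by H3K27me3 islands, left, and H3K4me3 islands, right, with 1 point per island list. Circles are replicate 1 and triangles replicate 2, grey is DMSO and red GSK126, and open symbols are standard lists of H3K27me3 or of GSK126. GATA4 and GATA5 stand high for H3K27me3 and at 0 for H3K4me3. GATA2, GATA3 and GATA6 show the opposite, except for 2.10% H3K27me3 at GATA2 in the DMSO standard list of replicate 2. The GSK126 points of GATA4 lie below DMSO in the spike-in lists and above it in the standard lists.

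GATA4 (chromosome 8, 11534468 to 11617511, plus strand) changed in opposite directions under the 2 normalizations. In the spike-in lists H3K27me3 islands covered 82.8% of its 85.0-kb interval with DMSO in both replicates, and 66.5% and 77.7% with GSK126. Both GSK126 values were below both DMSO values, with changes of -16.4 and -5.10 percentage points within replicates (mean -10.7 ± 7.96 points, SD, n = 2). The standard lists covered 76.2% and 70.4% of it under DMSO, and GSK126 brought this to 90.8% and 88.5%. Here both GSK126 values were above both DMSO values, by 14.6 and 18.1 points (mean 16.3 ± 2.49, SD, n = 2). This pair of directions, lower in both replicates of the spike-in lists and higher in both of the standard lists, was seen in 3.54% of 4912 genes, and an increase in both replicates of the standard lists alone in 5.24% of 4980. The median change over genes was -18.8 points in the spike-in lists and -5.17 points in the standard lists, and 99.1% of genes had a lower change than GATA4 in the latter. With 2 pairs an exact sign-flip permutation test cannot give a p below 0.5, so no p is given for any change.

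Islands over GATA4 were fewer and longer with GSK126 in the standard lists. With DMSO the interval was crossed by 6 and 9 separate islands there, and with GSK126 by 3 and 4. In the spike-in lists it was crossed by 7 in both DMSO replicates and by 8 and 6 with GSK126. The longest island in the standard lists was 21.8 kb with DMSO and 40.4 kb with GSK126 in replicate 1, and 15.4 kb against 37.2 kb in replicate 2. In the spike-in lists the longest was 21.8 kb with DMSO and 19.2 kb with GSK126 in replicate 1, and 22.0 kb against 20.6 kb in replicate 2. The canonical start of GATA4, at position 11561711, and the far upstream starts at 11534468 and 11534469 were under H3K27me3 in all 8 lists. An internal start at 11550135 was covered in 5 of the 8 lists and one near the 3′ end at 11614002 in 4. C8orf49 is a gene just past the 3′ end of GATA4, and its body plus 2000 bp upstream overlaps that end. This interval was covered to 79.2% and 90.9% in the DMSO spike-in lists and to 3.08% and 44.1% in those of GSK126. In the latter the islands ended at 11617000 and 11618400, before the body of C8orf49 begins at 11618896. The standard-list values of the C8orf49 interval were 90.9% in both DMSO replicates against 79.2% and 44.1% for GSK126. Its covered length was thus lower with GSK126 under both normalizations.

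GATA5 (chromosome 20, 61038553 to 61051051, minus strand) lay inside a single H3K27me3 island in every list. Its 14.5-kb interval was covered to 100% in all 8 lists, a state shared by 2.38% of the 5426 genes with H3K27me3 in both DMSO spike-in lists, and the covered length could therefore show no change. The island around it measured 68.4 and 69.2 kb with DMSO in the spike-in lists and 57.0 and 64.4 kb with GSK126. By the standard lists it measured 69.2 kb in both DMSO replicates and 67.8 and 67.4 kb with GSK126. It was among the highest-scoring islands of each list, at rank 108 of 35901 and 106 of 35522 in the DMSO spike-in lists and at rank 128 of 19812 and 175 of 16401 in those of GSK126. The start of GATA5 was under the mark in all 8 lists, as was the noncoding gene ENSG00000272050 upstream of it. For ENSG00000233017 downstream, between 68.3% and 89.4% of the body plus 2000 bp upstream was covered.

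**Figure D2:**
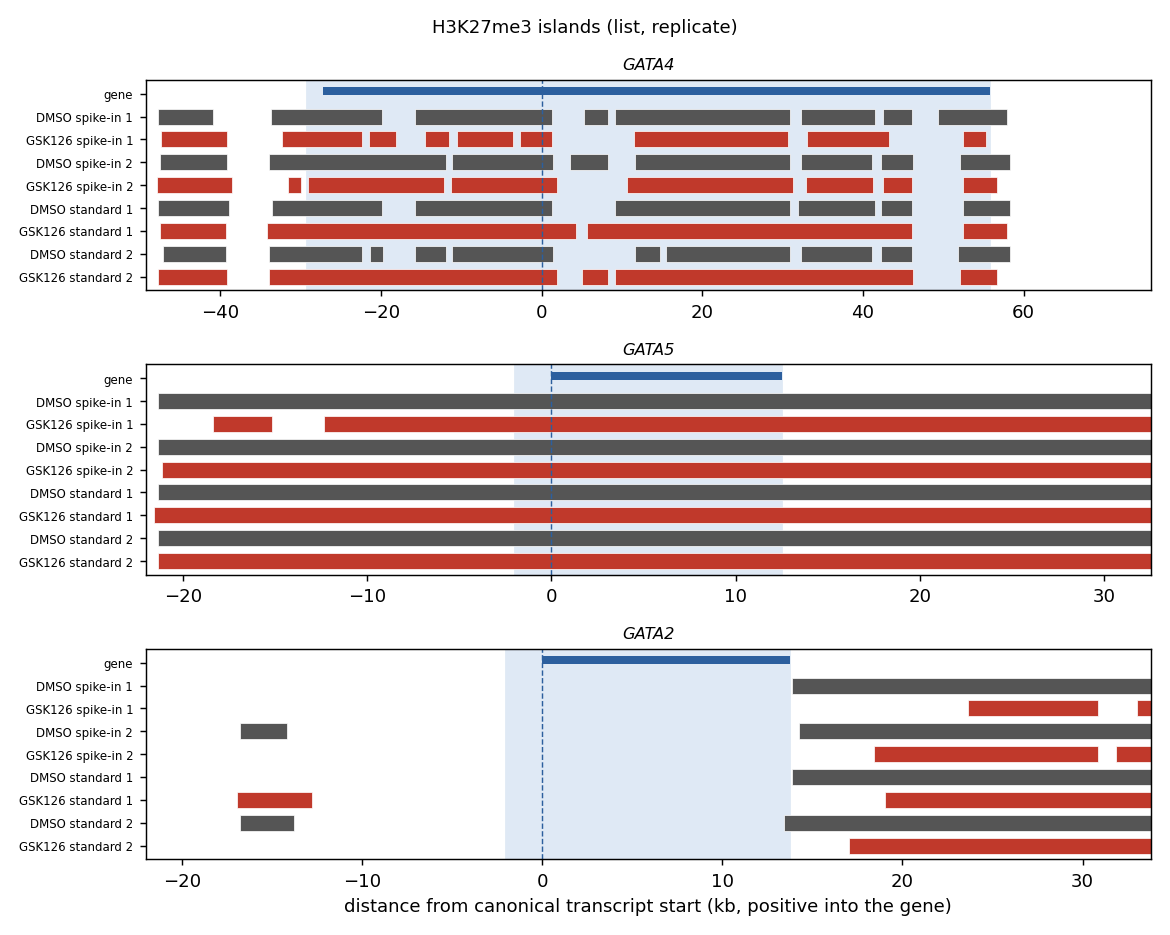
H3K27me3 islands (bars) around GATA4, GATA5 and GATA2 in each of the 8 lists, against distance from the canonical transcript start in kb, positive in the direction of transcription. Grey bars are DMSO, red bars GSK126, the blue bar is the gene and the shaded area the interval measured. Islands over GATA4 are fewer and longer with GSK126 than with DMSO in the standard lists and about as many in the spike-in lists, the GATA5 island runs across the whole interval in every list and beyond the right edge, and the domain to the right of GATA2 starts farther from the gene with GSK126.

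The deposited island scores allowed the signal at GATA4 and GATA5 to be compared where covered length could not. A window scores the negative log, to the natural base, of the Poisson probability of its tag number, an island sums its windows, and in the standard lists the DMSO and GSK126 libraries of a replicate have equal mean tag density. The summed score in GATA4 went from 2026 (DMSO) to 4241 (GSK126) in replicate 1, and replicate 2 gave 2216 and 7524, a ratio of 2.09 and 3.40 (mean 2.74 ± 0.920, SD, n = 2). For GATA5 it was 1726 and 2218 in replicate 1 and 2146 and 3558 in replicate 2, a ratio of 1.29 and 1.66 (mean 1.47 ± 0.263, SD, n = 2). Both members were higher with GSK126 in both replicates, as were 32.4% of the 4980 genes. The median ratio over those genes was 0.856, with 97.5% of them below GATA4 and 79.7% below GATA5. These ratios are not folds of tags, since a score is not proportional to tag number and is summed over the covered windows. Tags per covered window, estimated from the scores of the standard lists, went from 6.09 to 8.78 and from 7.26 to 13.7 at GATA4. At GATA5 they went from 14.6 to 17.4 and from 17.8 to 25.2.

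**Figure D3:**
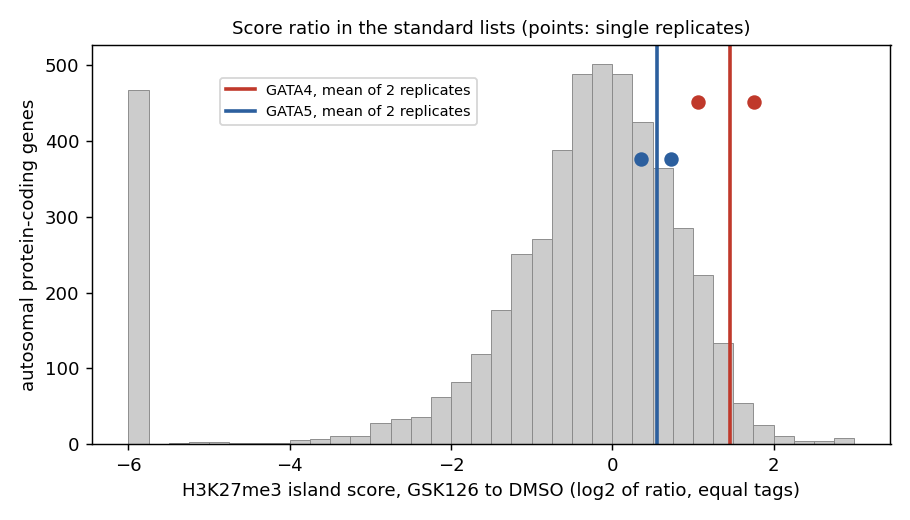
Number of autosomal protein-coding genes (y axis) by the ratio of summed H3K27me3 island score, GSK126 to DMSO, in the standard lists (x axis, log2, mean of 2 replicates). The 467 genes in the leftmost bar include those with no island left, and the rightmost bar includes all higher ratios. Lines are the means of GATA4 and GATA5 and points their single replicates, all of which lie above a ratio of 1, with both points of GATA4 to the right of both points of GATA5.

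In the spike-in lists, where the scaling by Drosophila tags is retained, the same scores were turned into an estimate of tags per covered window. At GATA4 the estimate went from 7.09 tags per covered 200-bp window (DMSO) to 2.94 (GSK126) in replicate 1, and replicate 2 gave 10.2 and 4.53. At GATA5 it was 17.9 (DMSO) and 5.70 (GSK126) in replicate 1, then 26.7 and 7.89 in replicate 2. Both genes thus held fewer tags with GSK126 in each replicate, 2.41-fold and 2.26-fold fewer at GATA4 and 3.14-fold and 3.38-fold fewer at GATA5. The scaling of all tags was 4.33-fold and 5.11-fold. The estimate is somewhat compressed: where the lists held 1 GSK126 library at 2 depths that differed 3.55-fold and 3.41-fold, it gave 2.98-fold and 3.03-fold at GATA4 and 3.04-fold and 3.19-fold at GATA5. Covered windows are those inside islands, and at GATA4 they are not the same windows in the lists compared.

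**Figure D4:**
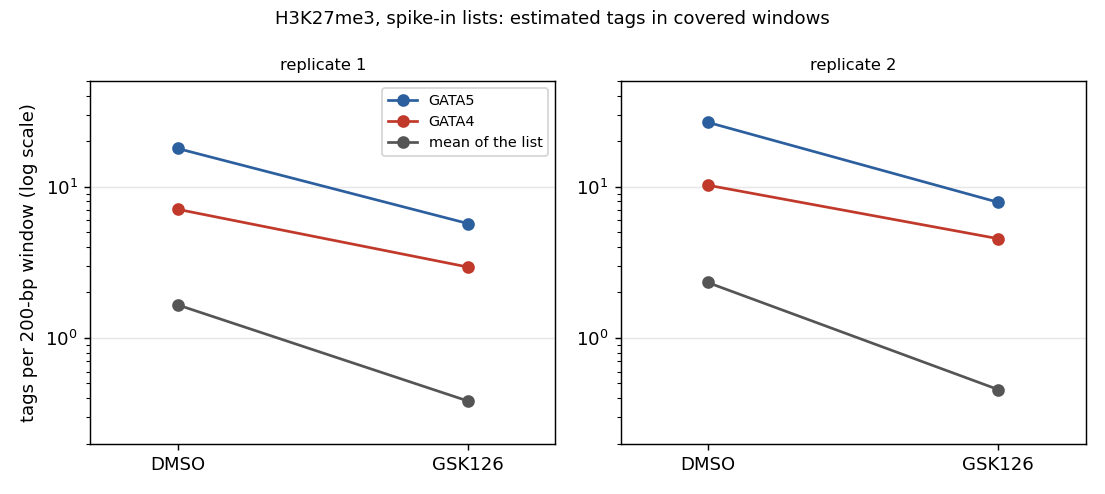
Estimated H3K27me3 tags per covered 200-bp window (y axis, log scale) at GATA4 and GATA5 with DMSO and with GSK126 in the spike-in lists, beside the mean over all windows of the list, for replicate 1 (left) and replicate 2 (right). All lines fall from DMSO to GSK126, and those of GATA4 and GATA5 fall less steeply than that of the list.

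GATA2 (chromosome 3, 128198270 to 128212044, minus strand) stood beside a H3K27me3 domain without being covered by it. The domain lay past its 3′ end, over DNAJB8, a chaperone gene of the testis that was covered to 100% in all 8 lists. With DMSO in the spike-in lists the domain ended 0.069 and 0.469 kb from the end of GATA2, and with GSK126 it ended 9.87 and 4.67 kb from it. In the standard lists the gap was 0.069 kb with DMSO in replicate 1, and in replicate 2 the island reached 0.331 kb into the gene, which was the 2.10% of the GATA2 interval covered in that list and the only H3K27me3 in it. With GSK126 the gap was 5.27 and 3.27 kb there. The edge was therefore farther from GATA2 with GSK126 in both replicates and both normalizations. Of the 50 kb past the end of the gene, 36.3 and 42.5 kb were covered with DMSO and 13.8 and 23.8 kb with GSK126 in the spike-in lists, and 39.1 and 36.6 kb against 29.2 and 31.2 kb in the standard lists. The score ratio of GSK126 to DMSO over these 50 kb was 0.758 and 0.822 at equal tags, below 1 where those of GATA4 and GATA5 were above it.

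GATA3 and GATA6 had no H3K27me3 near them. The closest H3K27me3 island to GATA3 in any list was 312.3 kb away on its 5′ side and 1744 kb on its 3′ side. For GATA6 the closest was 1227 kb away on the 5′ side, in every list, and 1779 kb on the 3′ side.

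H3K4me3 over GATA2 lay inside the gene. With DMSO the island was 10.0 kb long in replicate 1 and 5.00 kb in the shallower replicate 2. Islands covered 63.4% (DMSO) and 57.1% (GSK126, spike-in) of the interval in replicate 1, and 31.7% and 36.8% in replicate 2. The standard lists of GSK126 gave 54.5% and 36.8%. The replicates thus moved in opposite directions, by -6.34 and 5.07 points in the spike-in lists, and the difference was smaller than the spread between replicates (mean -0.634 ± 8.07, SD, n = 2). The rise in replicate 2 came from a second, low-scoring island of 1.20 kb, while the main island went from 5.00 to 4.60 kb. With a score floor of 2 times the lowest score of each list, the mean change was -10.1 ± 10.8 points in the spike-in lists and -5.71 ± 4.48 in the standard lists. The inner start whose upstream sequence is printed above, at 128207373, was under H3K4me3 in all 6 lists, together with starts at 128206759 and 128207877. The canonical start at 128212044 was covered in none of the 6, nor were the neighbouring starts of 4 further transcripts at 128212016 and 128212029. In every list with GSK126 the H3K4me3 of GATA2 was in 2 islands, and with DMSO in 1. GATA2-AS1, transcribed the other way, shared the island, with 31.4% and 22.5% of its body plus 2000 bp upstream covered with DMSO.

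GATA3 (chromosome 10, 8087341 to 8117161, plus strand) carried a broad H3K4me3 domain over its first part. With DMSO it was a single island of 15.0 kb in replicate 1, rank 73 of 23875 by length, and it was split into 3 islands of 2.20, 4.40 and 5.40 kb in replicate 2. Islands covered 47.1% (DMSO) and 44.6% (GSK126, spike-in) of the interval in replicate 1, and 37.7% and 30.8% in replicate 2. The corresponding standard lists of GSK126 gave 43.4% and 32.7%. GSK126 was lower within both replicates and both normalizations, with a mean change of -4.71 ± 3.11 points in the spike-in lists and -4.40 ± 0.889 points in the standard lists (SD, n = 2), while the DMSO and GSK126 values overlapped across replicates. The median gene with H3K4me3 changed by -0.609 and -0.701 points, but mean DMSO coverage was 42.4% at GATA3 against a median of 10.6%. As a log2 ratio, covered length at GATA3 changed by -0.186 and -0.163, against medians of -0.116 and -0.114. Of the genes with such a ratio, 38.2% and 40.9% had a lower one than GATA3. The score ratio at equal tags was 1.06 in replicate 1 and 0.669 in replicate 2, so that the score did not share the direction of the length in replicate 1. The canonical start at 8096651 was under H3K4me3 in all 6 lists. GATA3-AS1 starts close by on the other strand. Its body plus 2000 bp upstream was covered to 100% in replicate 1 and 72.2% in replicate 2 with either treatment.

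GATA6 (chromosome 18, 19749550 to 19782491, plus strand) had 1 H3K4me3 island over its start in each list. Its length was 8.60 kb (DMSO) and 8.20 kb (GSK126) in replicate 1, then 7.20 and 5.80 kb in replicate 2, in both normalizations. What shortened lay mainly outside the interval, over GATA6-AS1. H3K4me3 covered 86.4% and 80.6% of the body of GATA6-AS1 plus 2000 bp upstream under DMSO, and 80.6% and 66.3% under GSK126. The covered share of the GATA6 interval itself was 19.6% under either treatment in replicate 1, and 16.7% (DMSO) and 15.6% (GSK126) in replicate 2 (mean change -0.572 ± 0.809 points, SD, n = 2). The score ratio at equal tags was 1.06 and 0.959, around the median of 1.01 over all genes with the mark. Both annotated starts of GATA6 were covered in all 6 lists.

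**Figure D5:**
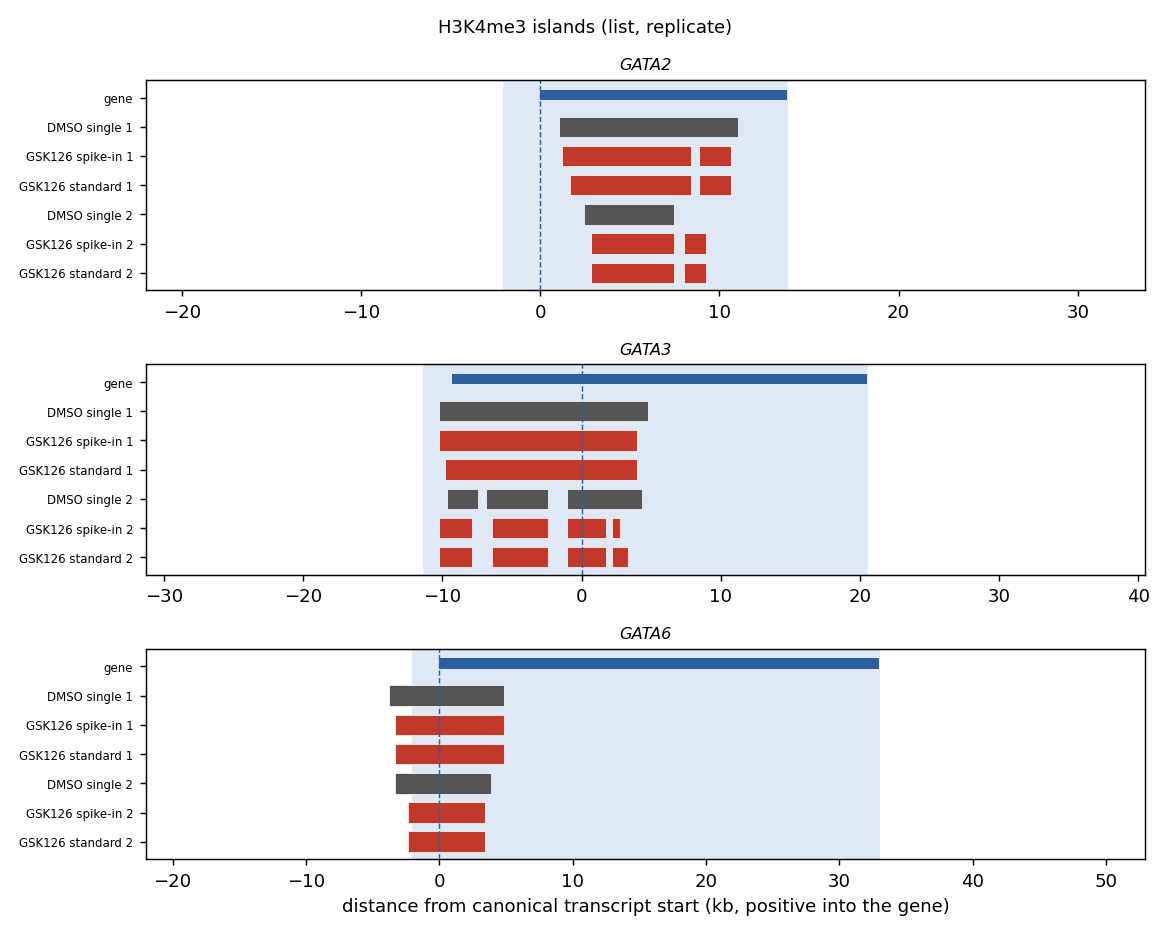
H3K4me3 islands (bars) around GATA2, GATA3 and GATA6 in each of the 6 lists, against distance from the canonical transcript start in kb, positive in the direction of transcription. Colours are as in the H3K27me3 map, and a DMSO library has a single list. The islands of GATA2 lie to the right of its canonical start, those of GATA3 on both sides of it and those of GATA6 across it, and the rows of replicate 2 are shorter than those of replicate 1.

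No member met the call for a changed length. H3K27me3 in the spike-in lists was reduced to at most 0.5 times the DMSO length in both replicates at 0 of the 2 covered members, GATA4 and GATA5, against 56.5% of 5426 genes, and raised at least 2 times at neither, against 0% of genes. Under the standard lists the same calls were made at 0 of 2 members and at 15.9% and 0.161% of genes. The raised call could not be met at GATA4 or GATA5, since islands covered at least 70.4% of each interval with DMSO. For H3K4me3 the calls were made at 0 of 3 members, against 0.769% of genes reduced and 0.00754% raised in the spike-in lists and 0.588% and 0.00754% in the standard lists. Summed over the 5 intervals, H3K27me3 covered 84.9 kb with DMSO in both replicates of the spike-in lists and 71.0 and 80.6 kb with GSK126, a log2 ratio of -0.26 and -0.076 (mean -0.17 ± 0.13, SD, n = 2). In the standard lists it covered 79.3 and 74.7 kb with DMSO and 91.7 and 89.7 kb with GSK126, a log2 ratio of 0.21 and 0.27 (mean 0.24 ± 0.039). GATA5 did not change, so these sums carry the change of GATA4 and, in one DMSO list, the edge at GATA2. H3K4me3 covered 31.9 and 22.9 kb with DMSO, 30.1 and 21.1 kb with GSK126 in the spike-in lists (mean log2 ratio -0.10 ± 0.024) and 29.3 and 21.7 kb in the standard lists (-0.10 ± 0.032).

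The genes that GATA factors work with fell into both states. Of 10 haematopoietic partners, 9 had H3K27me3 in both DMSO spike-in lists, 8 had H3K4me3 and 7 had both, where 28.2% and 69% of all genes had the one and the other mark. RUNX1, ZFPM1 and ZFPM2 were among the 9 with H3K27me3 over only 0.971% to 3.51% of their intervals. GSK126 reduced 5 of the 9 to at most 0.5 times, a share near the 56.5% of all genes. TAL1, a partner of GATA2 in progenitors, had H3K27me3 over 94.2% and 100% of its interval under DMSO and over 84.7% and 80.3% under GSK126. LYL1, its close relative, was covered to 38.4% and 41.7% with DMSO and had no island left with GSK126. LDB1, the adaptor of the same complex, had only H3K4me3. Of 8 heart and endoderm partners, 4 had H3K27me3 with DMSO and 2 of these were reduced to at most 0.5 times. NKX2-5, which acts with GATA4 in the heart, held both marks, with H3K27me3 over 84.6% and 100% of its interval with DMSO and over 71.4% and 97.8% with GSK126. TBX5, another cardiac partner of GATA4, had H3K27me3 over 68.0% and 79.0% with DMSO and 42.5% and 45.0% with GSK126, and no H3K4me3. HNF4A, a regulator of liver and gut genes, fell from 59.2% and 64.6% to 18.4% and 13.6%. The 4 luminal partners of GATA3 (FOXA1, ESR1, TFAP2C and XBP1) had H3K4me3 and no H3K27me3, as GATA3 and 52.7% of all genes did. H3K4me3 covered FOXA1 to 100% and 73.6% with DMSO. At ESR1 it covered only 1.56% and 0.295% of the interval with DMSO, and the gene start in 0 of 6 lists. Of 9 genes of other proteins with GATA-type zinc fingers, 2 had H3K27me3 and 8 had H3K4me3. The 2 held H3K27me3 over little of their intervals with DMSO, 4.11% and 3.23% at GATAD2B and 0.602% and 0.401% at RERE. Neither had an island left in the GSK126 spike-in lists. In the standard lists 0 of the 9 haematopoietic and 0 of the 4 heart and endoderm partners with the mark were longer with GSK126 in both replicates, where 5.24% of all genes were.

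The genes whose covered shares over all lists were closest to those of each member, among genes of 0.5 to 2 times its interval length, were found by Euclidean distance. For GATA2 these were TMEM167B, RUSC1 and SLC25A35, the first at a distance of 4.38 points, and for GATA3 they were PTGES, VEGFA and SPRY4, the first at 4.99 points. BRI3, ASPHD1 and FAM76B were closest to GATA6, the first at 1.09 points. GATA5 shared its profile exactly with 40 of the 6699 genes compared, whereas the gene closest to GATA4, MYOM2, was 15.2 points away, followed by RAB37 and OTOG.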

How the data were processed

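ChIP-seq of H3K27me3 and H3K4me3 was measured in 8 PC9 libraries, grouped by the antibody and treatment in the labels. Replicates were numbered in accession order, and DMSO and GSK126 were compared within a replicate because the authors removed tags within it. The authors aligned 50-nt tags to hg19 with BWA, removed duplicates, kept mapping qualities above 25 and called islands for each library with SICER (random background, E-value 1, windows of 200 bp, and a gap size of 600 bp with H3K27me3 but 200 bp with H3K4me3). The deposited value of an island is its score, and the tags themselves were not analysed here. The start sequences of GATA4 and GATA5 are not reported here.

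Python 3.11.15 and NumPy 2.4.6 were used to sum covered length and scores over gene bodies plus 2000 bp upstream (GENCODE mapped to GRCh37). Scores were shared evenly over the length of an island. The tag density of each list was fitted with SciPy 1.17.1 from islands of 1 or 2 windows and gave the estimated tags, and the code was tested on simulated data. Changes are GSK126 against DMSO with the SD over 2 replicates, for which an exact permutation test cannot pass a threshold. Covered lengths have no counting interval, and the depth of a list limits which islands could be called. Alternatives changed the island threshold, island length, interval, replicates and pairing. The text names the members, annotated genes within 20 kb that share or border their islands, the 3 closest genes by coverage and examples from partner lists. The members and lists were chosen with earlier results of these data known. The score comparisons and the count of genes that gained length were added after the data were seen.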

Additional observations from a re-analysis of the deposited data

Results flagged for a closer look

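Summed over the 5 GATA intervals in the standard lists, H3K27me3 covered more with GSK126 in both replicates and H3K4me3 covered less in both. The mean log2 ratios were 0.24 and -0.10, a difference of 0.34, and the difference was not tested. The H3K27me3 sum rests on GATA4, and the H3K4me3 sum on GATA2, GATA3 and GATA6.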

How the results depend on the processing

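The summed log2 ratios of the family moved with the interval and the island threshold. One alternative interval was 2000 bp on each side of the outermost annotated gene start. For GATA3 (8087341) and GATA4 (11534468) this lies upstream of the canonical start. There H3K27me3 changed by -0.012 in the spike-in and 0 in the standard lists, since the outermost starts of GATA4 and GATA5 were covered throughout. H3K4me3 changed by 0.0044 in the spike-in lists, with the direction turned. Around the outermost start of GATA3, H3K4me3 changed by 2.50 points in the spike-in lists, also turned. With a score floor of 2 times the lowest score of each list, the ratio was 0.30 for H3K27me3 in the standard lists and -0.21 and -0.19 for H3K4me3 in the spike-in and standard lists. H3K4me3 gave -0.14 over gene bodies and -0.14 with 5000 bp upstream in the spike-in lists, and -0.14 with 5000 bp in the standard lists. Set against the DMSO standard lists, H3K27me3 of the GSK126 spike-in lists changed by -0.025. Leaving out a replicate gave -0.26 to -0.076 for H3K27me3 in the spike-in lists, moved over 1.5 times by either replicate, and 0.21 to 0.27 in the standard lists, and for H3K4me3 -0.12 to -0.084 and -0.12 to -0.078. Without the replicate block the ratios were -0.16, 0.24, -0.098 and -0.10 in the same order. The other family values stayed within 1 SD (23 of 33), as did 154 of 165 values of single members. The causes were not tested. The depth of H3K4me3 replicate 2 limits where islands can be seen, and an interval without an island may still hold the mark.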
